A study of Homo sapiens with 10 samples.

Results

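The 10 genes described here, of inherited interferon disease and of nucleic acid sensing, were taken by name from the gene counts of SAMHD1-KO and wild-type (WT) breast cancer spheroids. They were TREX1, RNASEH2A, RNASEH2B, RNASEH2C, ADAR, IFIH1, LSM11, MAVS, TBK1 and IRF3. Of these 10 genes, 9 were among the 13920 genes of the table. TREX1, a DNA exonuclease, was absent from the table and could not be analysed. It shares 1816 bases with ATRIP, and why it was absent was not tested.

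RNA was sequenced from spheroids of T47D, a human luminal breast cancer cell line. The 3 groups were WT cells and 2 SAMHD1 knock-out (SAMHD1-KO) clones, A1 and A2, made with CRISPR-Cas9 directed at the SAMHD1 exon that encodes the HD domain. WT and clone A1 each have 1 library from experiments 10, 11, 15 and 16, whereas clone A2 has libraries from experiments 15 and 16 alone, and each KO group is a single clone. Each comparison below stays within experiments 10 and 11 or within experiments 15 and 16, unless it is named as a comparison between these pairs.

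Aicardi-Goutières syndrome is an inherited inflammatory disease in which cells mount a type I interferon response to their own nucleic acids, and SAMHD1 itself is one of its genes. The other genes either limit the amount or the form of the cell's own nucleic acids (TREX1, the RNase H2 subunits, ADAR, and LSM11 through the processing of histone transcripts) or sense them (IFIH1). IFIH1, also called MDA5, binds long double-stranded RNA in the cytoplasm and signals through the mitochondrial adaptor MAVS to the kinase TBK1, which phosphorylates the transcription factor IRF3.

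Total counts ranged from 40077369 to 51311482 per library, and levels are given as CPM, in which each count is divided by its library's total and TMM factor. Of 8 luminal epithelial markers 7 were listed, with PGR and GATA3 at 15.4 to 24.8 CPM and ESR1 at 0.18 to 1.59 CPM in all libraries. FOXA1 had 14.1 to 26.8 CPM in all libraries and KRT8 6.86 to 9.07 CPM in WT, and KRT19 was not listed. The sum of the 7 listed markers in experiments 15 and 16 was 112 to 113 CPM in WT, 105 to 106 CPM in clone A1 and 101 to 104 CPM in clone A2. In experiments 10 and 11 it was 120 to 129 CPM in WT and 107 to 117 CPM in clone A1. Of 8 immune cell markers only CD14 and CD68 were listed, at 1.52 to 2.94 CPM in sum. The 4 listed of 7 stromal and endothelial markers summed to 48.3 to 52.8 CPM in WT, 37.4 to 38.2 CPM in clone A1 and 40.5 to 41.3 CPM in clone A2 of experiments 15 and 16, and to 65.9 to 87.2 CPM in WT and 51.4 to 59.6 CPM in clone A1 of experiments 10 and 11. In experiments 15 and 16 edgeR called COL3A1 (log2 −1.66 in clone A1 and −2.16 in clone A2) and KRT8 (−0.70 and −0.98) lower in both clones and FOXA1 higher in both (0.47 and 0.31), and KRT18 (−0.28), ACTA2 (−0.34) and CD14 (−1.37, from 9 to 29 reads) lower in clone A1. In clone A1 of experiments 10 and 11 KRT8 was called lower as well (−0.94). The part of these markers in the results was not tested, and in bulk RNA fewer cells of a type and less RNA per cell cannot be told apart. By a chi-square statistic over all genes, divided by its degrees of freedom, WT of experiment 10 differed from WT of experiment 11 by 25.1 but from the clone A1 libraries of these experiments by 10.1 and 8.51. The clone A1 libraries of experiments 15 and 16 differed from each other by 25.2, and that of experiment 16 from the clone A2 libraries by 19.7 and 20.8. SAMHD1, the targeted gene, had 49.8 to 56.4 CPM in the 4 WT libraries, 22.5 and 23.0 CPM in clone A1 of experiments 10 and 11, 6.44 and 6.15 CPM in clone A1 of experiments 15 and 16, and 23.6 and 20.2 CPM in clone A2. All 6 KO libraries thus lay below the WT libraries. The libraries labelled clone A1 in experiments 10 and 11 lay within the range of clone A2 and above those labelled clone A1 in experiments 15 and 16. Whether the label stands for the same cells in both pairs was not tested, and each change of the clone A1 effect between the pairs below compares libraries with different SAMHD1 levels.

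The promoters of IFIH1 and RNASEH2A are printed because IFIH1 varied most among the members and RNASEH2A was lower in both clones. Both are the 250 bases before the gene's start in RefSeq (GRCh38.p14), 5′ to 3′ on the gene's strand. IFIH1 lies on the minus strand, and its stretch is chr2:162318685-162318934. Capitals mark each match, on either strand, to GAAA followed by any 2 bases and GAAA, the letters of an interferon-stimulated response element. RNASEH2A lies on the plus strand, and its stretch is chr19:12806334-12806583. Capitals mark the match to CCGGAAG, the core of an ETS factor site, and the adjoining inverted CCAAT, which do not overlap.
IFIH1: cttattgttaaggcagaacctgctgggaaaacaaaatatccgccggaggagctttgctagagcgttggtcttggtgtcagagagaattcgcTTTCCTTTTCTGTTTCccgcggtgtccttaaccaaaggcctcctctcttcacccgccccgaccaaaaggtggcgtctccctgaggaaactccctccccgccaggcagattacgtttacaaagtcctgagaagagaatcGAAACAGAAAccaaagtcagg
RNASEH2A: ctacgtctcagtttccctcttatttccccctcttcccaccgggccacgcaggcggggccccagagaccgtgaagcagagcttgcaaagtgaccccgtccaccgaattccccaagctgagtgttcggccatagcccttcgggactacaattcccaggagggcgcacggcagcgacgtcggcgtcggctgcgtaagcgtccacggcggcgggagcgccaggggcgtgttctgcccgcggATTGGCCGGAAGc

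In IFIH1, 1 match lay on the gene's strand at positions −21 to −12 from the start, and 2 overlapping matches lay on the opposite strand between −159 and −144. Of 35116 promoter windows in RefSeq, 3.02% held this motif, searched over the same 250 bases, and of the 12 windows of 9 member genes, TREX1 included, only that of IFIH1 did. CCGGAAG was found in 8.52% of all windows and, among the members, in RNASEH2A and in 1 window of ADAR. CCAAT was found in 32.0% of all windows and in 7 of the 12 member windows, which belong to ADAR, MAVS, RNASEH2A, RNASEH2B and TBK1. IRF3 had no entry. These matches describe letters, and binding was not measured.

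**Figure D1:**
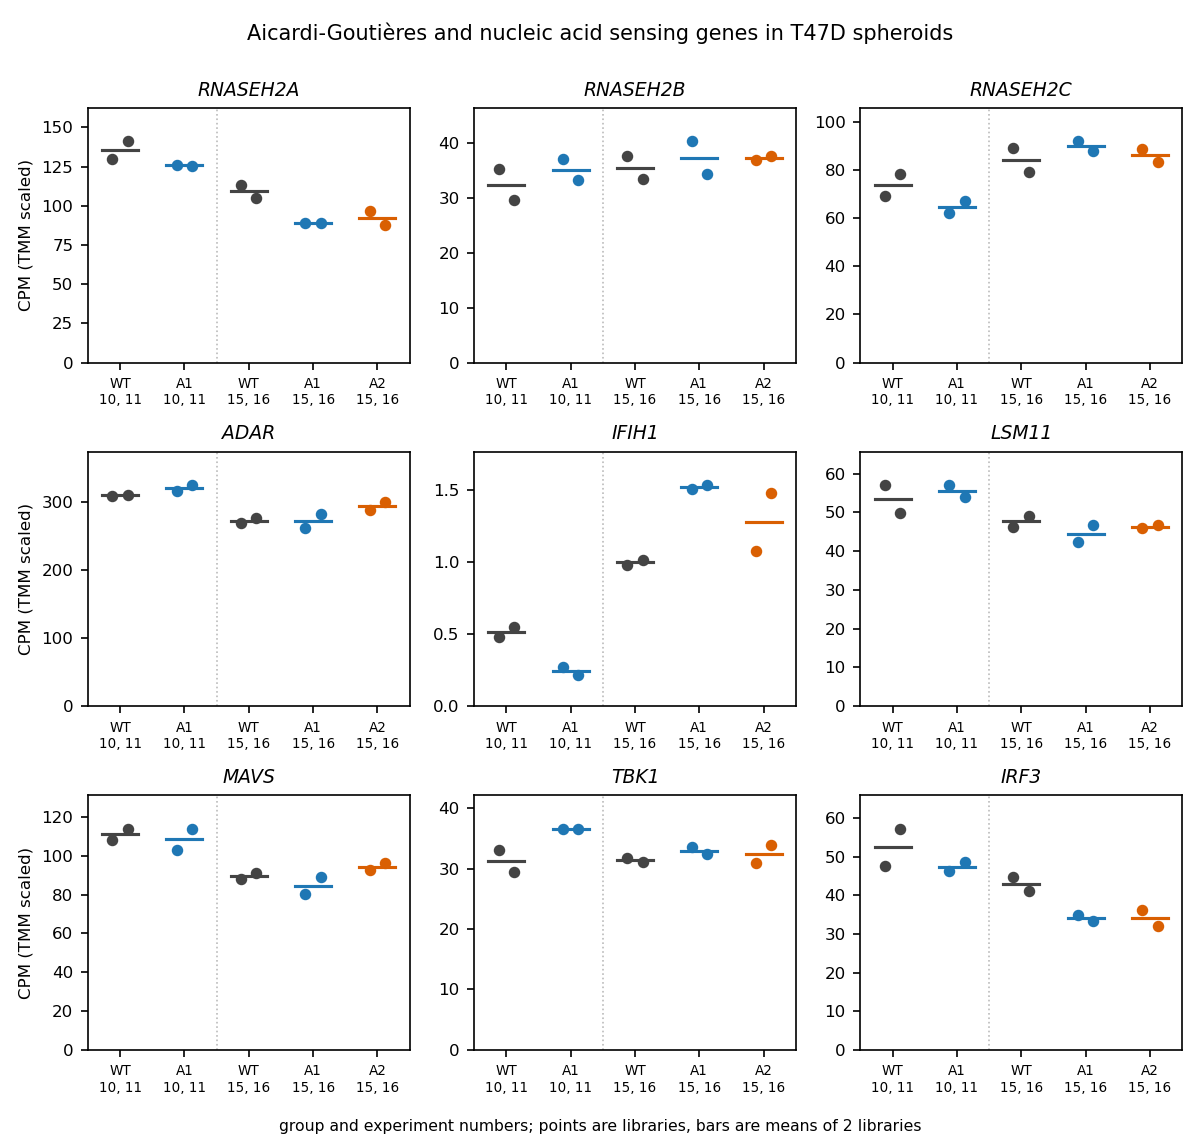
Level of each member in every library, in CPM on a linear axis that starts at 0, by group and experiment; points are libraries and bars the means of 2 libraries. RNASEH2A and IRF3 were lower in both clones than in WT in experiments 15 and 16, while IFIH1 stayed between 0.22 and 1.54 CPM.

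Levels of different genes were compared per kilobase of annotated exon (GENCODE), in the 4 WT libraries. RNASEH2A, the catalytic subunit of RNase H2, had the highest level at 59.5 ± 7.87 CPM per kilobase (mean ± SD, n = 4). ADAR followed at 23.7 ± 1.78, RNASEH2C at 15.9 ± 1.65 and IRF3 at 12.6 ± 1.83 CPM per kilobase. Libraries of RNASEH2C and IRF3 overlapped on this scale, as did those of MAVS (8.51 ± 1.09) and LSM11 (7.70 ± 0.70 CPM per kilobase). TBK1 had 2.13 ± 0.10 and RNASEH2B 1.30 ± 0.13 CPM per kilobase. RNASEH2B has many transcript models, which add up to 26222 bases of exon, and its value per kilobase depends on that annotation. IFIH1 was the lowest at 0.14 ± 0.054 CPM per kilobase, from 22 to 52 reads in a WT library, whereas each of the other 8 members had at least 1262 reads.

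In experiments 15 and 16, RNASEH2A and IRF3 were called lower in clone A1 than in WT, and no member was called higher. The count of 2 called members of 9 stands beside 13.2% of all genes called in either direction and 6.74% called lower. The same genes were the 2 of 9 called in clone A2, where 21.2% of all genes were called and 11.4% called lower. In 4.37% of all genes the call was lower in both clones, which share their WT libraries. With the experiment number as a block these backgrounds rose to 23.3% and 32.4% of genes, and the called members were 2 of 9 in clone A1 and, with ADAR, 3 of 9 in clone A2. Over the 9 members the median of the log2 fold changes was −0.0045 for clone A1 and 0.043 for clone A2, beside 0.0026 and 0.0043 over all genes.

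**Figure D2:**
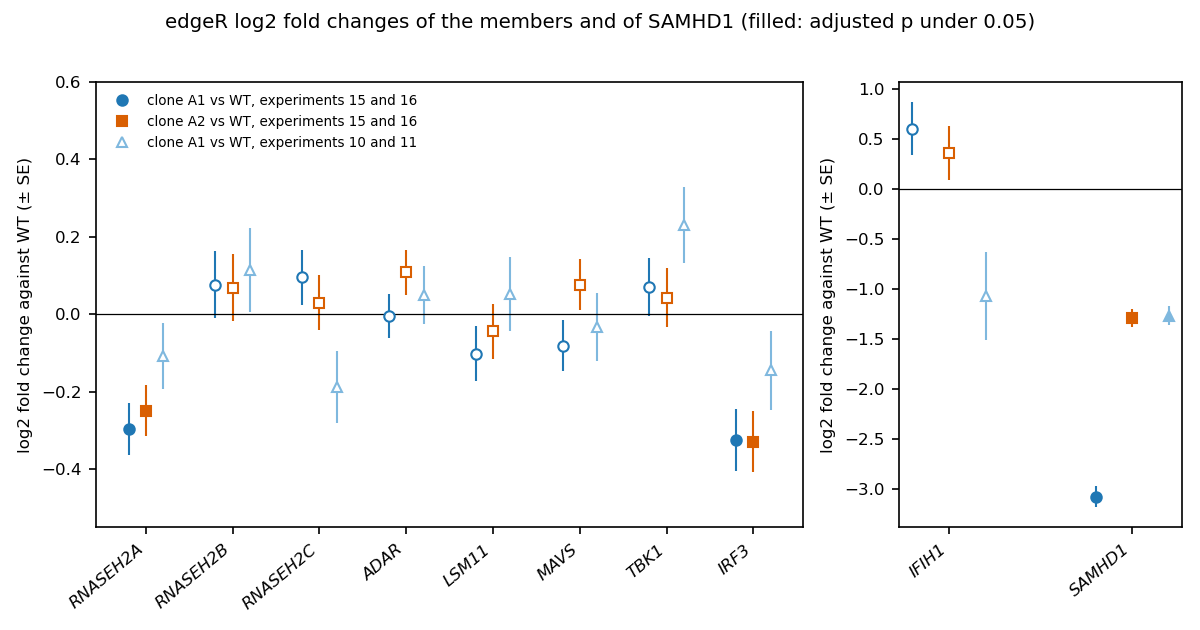
Log2 fold change against WT for each member (left) and, on a wider axis, for IFIH1 and the targeted gene SAMHD1 (right); symbols are edgeR estimates, bars their SE, and filled symbols have an adjusted p under 0.05. The filled symbols of the left panel are those of RNASEH2A and IRF3 in experiments 15 and 16, between −0.25 and −0.33.

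RNase H2 removes ribonucleotides from DNA and the RNA strand of hybrids, and RNASEH2A carries its active site. RNASEH2A (NCBI gene 10535, chromosome 19 from 12806584 to 12813640) was at 113 and 105 CPM in the WT libraries of experiments 15 and 16. Clone A1 was at 88.8 and 89.3 CPM and clone A2 at 96.4 and 87.9 CPM. All 4 KO libraries lay below both WT libraries, and the clones overlapped each other. The log2 fold change against WT was −0.30 (SE 0.067) in clone A1, with adjusted p = 0.00882 (edgeR quasi-likelihood test), and −0.25 (SE 0.066) in clone A2, with adjusted p = 0.0141. Without WT of experiment 15 the edgeR adjusted p was 0.108 for clone A1 and 0.165 for clone A2, and without clone A2 of experiment 16 it was 0.146 for clone A2. In the other pair, experiments 10 and 11, WT had 130 and 141 CPM and clone A1 126 and 125 CPM. These groups did not overlap but lay closer together, at −0.11 on the log2 scale (edgeR adjusted p = 0.784, SE 0.084). The 355 other genes within 10 Mb had a median of −0.11 as well in that pair, and −0.015 was left to RNASEH2A with it removed. The change of the clone A1 effect between the pairs was −0.18 (edgeR adjusted p = 0.440, SE 0.10).

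The other subunits of RNase H2, which hold the complex together, were not called in either clone. RNASEH2B (NCBI gene 79621, chromosome 13) had 37.6 and 33.4 CPM in WT, 40.4 and 34.4 CPM in clone A1 and 37.0 and 37.6 CPM in clone A2 of experiments 15 and 16. RNASEH2C (NCBI gene 84153, chromosome 11) had 89.3 and 79.1 CPM in WT, 92.0 and 87.8 CPM in clone A1 and 88.7 and 83.4 CPM in clone A2. For both genes each clone overlapped WT, and the log2 fold changes were between 0.030 and 0.095. In experiments 10 and 11 RNASEH2C had 69.2 and 78.2 CPM in WT and 62.3 and 67.0 CPM in clone A1, or −0.19 on the log2 scale (edgeR adjusted p = 0.733, SE 0.093). Its 274 neighbours within 10 Mb had a median of −0.11 there, with 79.6% of them below 0, and −0.099 was left to RNASEH2C. Between the pairs the clone A1 effect on RNASEH2C differed by 0.29 on the log2 scale (SE 0.12), which edgeR gave an adjusted p of 0.266, and of 0.0459 with the experiment as a block. RNASEH2C shares 1932 bases with KAT5, and the strand setting of the counting is not given in the sources used here.

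IRF3, the transcription factor at the end of the sensing pathway, was also lower in both clones. IRF3 (NCBI gene 3661, chromosome 19 from 49659572 to 49665857) was at 44.7 and 41.1 CPM in the WT libraries of experiments 15 and 16. Clone A1 was at 35.0 and 33.5 CPM and clone A2 at 36.3 and 32.2 CPM. All 4 KO libraries again lay below WT, with the clones overlapping. The log2 fold change was −0.32 (edgeR adjusted p = 0.0144, SE 0.080) in clone A1 and −0.33 (edgeR adjusted p = 0.00785, SE 0.079) in clone A2. Without WT of experiment 15 the edgeR adjusted p was 0.126 and 0.0798, without clone A1 of experiment 16 it was 0.0801 for clone A1, and without clone A2 of experiment 16 it was 0.101 for clone A2. The groups overlapped in the earlier pair, with 47.7 and 57.3 CPM in WT and 46.4 and 48.5 CPM in clone A1 (log2 −0.15, edgeR adjusted p = 0.776, SE 0.10), or −0.036 with the median of the neighbours removed. IRF3 overlaps BCL2L12 over 716 bases, and BCL2L12 had log2 fold changes of −0.19 (edgeR adjusted p = 0.0901) and −0.16 (edgeR adjusted p = 0.115) in clones A1 and A2.

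RNASEH2A and IRF3 were lower than the WT library of the same experiment in 6 of 6 differences, as were 8.04% of all genes. Both lie on chromosome 19, where neighbouring genes were lower as well. Within 10 Mb of RNASEH2A, the log2 fold changes of 355 other genes had a median of −0.19 in clone A1 and −0.15 in clone A2, and 78% and 79.7% of them were below 0, beside 49.3% of all genes. Within 10 Mb of IRF3, 391 other genes had medians of −0.17 and −0.16. Of the neighbours of RNASEH2A, 20.8% had a change at or below its own in clone A1 and 26.5% in clone A2, and of those of IRF3 18.2% and 21.7%. When the median of these neighbours was taken from each gene, the change left to RNASEH2A was −0.11 (limma adjusted p = 0.277) in clone A1 and −0.092 (limma adjusted p = 0.313) in clone A2. For IRF3 it was −0.14 (limma adjusted p = 0.223) and −0.17 (limma adjusted p = 0.113), so neither gene was called beyond its region. In that analysis 8.02% and 13.8% of all genes were still called. The medians around the other 7 members lay between −0.023 and 0.060 in both clones.

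**Figure D3:**
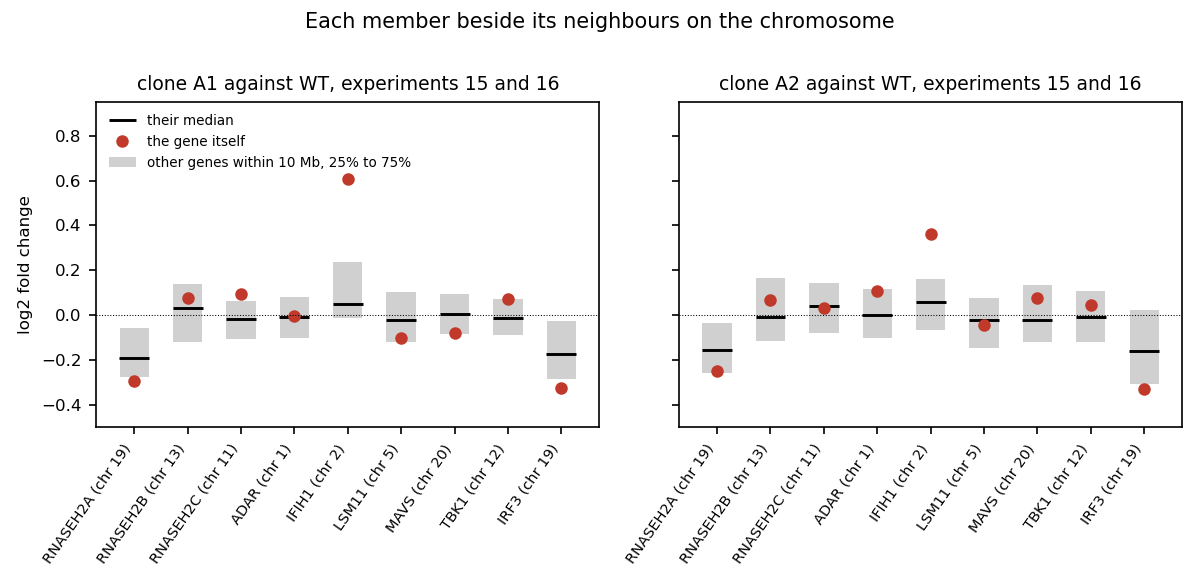
Log2 fold change of each member (red) in clone A1 and clone A2 against WT in experiments 15 and 16, beside the other genes within 10 Mb on its chromosome (grey, 25% to 75%; black line, median). The neighbours of RNASEH2A and IRF3 on chromosome 19 had medians between −0.19 and −0.15, while those of the other members lay near 0.

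IFIH1, the double-stranded RNA sensor, was scarce and had the widest spread of the members, with a 7.07-fold range between libraries. IFIH1 (NCBI gene 64135, chromosome 2 from 162267074 to 162318684) had 0.48 and 0.55 CPM in WT and 0.27 and 0.22 CPM in clone A1 of experiments 10 and 11, from 10 to 27 reads. In experiments 15 and 16 it had 0.98 and 1.01 CPM in WT, 1.51 and 1.54 CPM in clone A1 and 1.08 and 1.48 CPM in clone A2, from 39 to 76 reads. Clone A1 thus lay below WT in experiments 10 and 11 and above WT in experiments 15 and 16, with no overlap in either pair. The log2 fold change was −1.07 (edgeR adjusted p = 0.709, SE 0.44) in experiments 10 and 11 and 0.61 (edgeR adjusted p = 0.155, SE 0.27) in experiments 15 and 16. Clone A2 differed from WT by 0.36 on the log2 scale (edgeR adjusted p = 0.376, SE 0.27), and by 0.57 without its library of experiment 15 and 0.10 without that of experiment 16. The clone A1 effect changed by 1.68 between the pairs (SE 0.47), where edgeR gave an adjusted p of 0.0860, and of 0.0465 with the experiment as a block. The 9 members had 0 calls for this change by edgeR, DESeq2 or limma, beside 1.91% of all genes called by edgeR. With the block they had 2 calls, IFIH1 and RNASEH2C, beside 7.77%. At an unadjusted edgeR p under 0.05 there were 2 members, with no share of all genes given at that threshold.

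MAVS (NCBI gene 57506, chromosome 20), the adaptor for IFIH1, had 87.8 and 91.0 CPM in WT, 80.1 and 89.0 CPM in clone A1 and 92.6 and 96.3 CPM in clone A2 of experiments 15 and 16. Clone A2 lay above both WT and clone A1. Between the clones MAVS differed by 0.16 on the log2 scale (edgeR adjusted p = 0.193, SE 0.066, or 0.0300 with the experiment as a block). It was the 1 member called between the clones with the block, beside 14% of all genes. Without the block 0 members were called by edgeR, DESeq2 or limma, beside 6.16% of all genes by edgeR. At an unadjusted edgeR p under 0.05 there was 1 member, with no share of all genes given at that threshold. Against WT the log2 fold changes were −0.081 in clone A1 and 0.076 in clone A2, with edgeR adjusted p of 0.482 and 0.457.

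TBK1 (NCBI gene 29110, chromosome 12), the kinase that activates IRF3, had 31.8 and 31.1 CPM in WT, 33.7 and 32.4 CPM in clone A1 and 30.9 and 34.0 CPM in clone A2 of experiments 15 and 16. It had 33.1 and 29.4 CPM in WT and 36.6 and 36.7 CPM in clone A1 of experiments 10 and 11. Clone A1 lay above WT in both pairs. The differences were small, at 0.070 (edgeR adjusted p = 0.616, SE 0.076) and 0.23 (edgeR adjusted p = 0.709, SE 0.099) on the log2 scale.

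ADAR (NCBI gene 103, chromosome 1), which edits adenosine to inosine in double-stranded RNA, had the highest CPM of the members. It had 268 and 276 CPM in WT, 261 and 281 CPM in clone A1 and 288 and 299 CPM in clone A2 of experiments 15 and 16. Clone A2 lay above the other groups, by 0.11 on the log2 scale against WT (SE 0.057), with an edgeR adjusted p of 0.204 and 0.0467 with the experiment as a block. In clone A1 the log2 fold change was −0.0045 (SE 0.058). LSM11 (NCBI gene 134353, chromosome 5), a subunit of the U7 particle that cuts histone transcripts, had 46.3 and 49.0 CPM in WT, 42.3 and 46.7 CPM in clone A1 and 46.0 and 46.7 CPM in clone A2. Both clones overlapped WT for LSM11, with log2 fold changes of −0.10 (SE 0.072) and −0.044 (SE 0.071).

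Between clone A1 and WT of experiments 10 and 11, edgeR called 0 members, beside 0.0862% of all genes, or 12 genes, and DESeq2 and limma called 0 as well. At an unadjusted edgeR p under 0.05 there were 2 members, IFIH1 and TBK1, with no share of all genes given at that threshold. Without WT of experiment 10, a fit that assumes that the lone WT library varied like clone A1, edgeR called 3144 genes and 4 members. These were RNASEH2B (0.25, adjusted p = 0.0283), RNASEH2C (−0.27, adjusted p = 0.00260), TBK1 (0.32, adjusted p = 0.00327) and IRF3 (−0.27, adjusted p = 0.00510).

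The members also differed between the WT libraries of the 2 pairs of experiments. Of the 9 members 3 were called lower in WT of experiments 15 and 16 than in WT of experiments 10 and 11 and none higher, beside 6.86% of all genes lower and 14.6% in either direction. RNASEH2A differed by −0.31 (edgeR adjusted p = 0.00992, SE 0.073), MAVS by −0.31 (edgeR adjusted p = 0.0151, SE 0.079) and IRF3 by −0.29 (edgeR adjusted p = 0.0419, SE 0.091). The neighbours of RNASEH2A and IRF3 again had medians of −0.20 and −0.19, and with these removed the changes were −0.12 (limma adjusted p = 0.244) and −0.093 (limma adjusted p = 0.436). The 76 neighbours of MAVS had a median of 0.033, and MAVS was still called with it removed (−0.35, limma adjusted p = 0.00644), beside 10.8% of all genes. IFIH1 was 0.95 higher on the log2 scale (edgeR adjusted p = 0.0518, SE 0.31). Of the 7 listed luminal markers FOXA1 (0.34) and EPCAM (0.96) were called higher and ESR1 (−1.84) and KRT18 (−0.38) lower between the same WT libraries, as was COL3A1 (−0.87), and their part in these results was not tested. In this comparison the things that differed between the pairs of experiments cannot be told apart. Leaving out WT of experiment 16 left 0 of the 3 calls (edgeR adjusted p = 0.156 for RNASEH2A, 0.0804 for MAVS and 0.295 for IRF3), and leaving out WT of experiment 15 left that of RNASEH2A (edgeR adjusted p = 0.120 for MAVS and 0.0873 for IRF3). IRF3 was also not called without WT of experiment 11 (edgeR adjusted p = 0.263) or without any 1 of the clone A1 libraries (0.0541 to 0.0652), which share the fit.

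The levels of RNASEH2A over the 5 combinations of group and experiment pair ran from WT of experiments 10 and 11, through clone A1 of these experiments and WT of experiments 15 and 16, down to the clones of experiments 15 and 16. Only the last 2, clones A2 and A1, overlapped. IRF3 had the same order for the 3 highest, with overlap also between clone A1 and WT of experiments 10 and 11. Over the 10 libraries the log2 CPM of RNASEH2A and IRF3 correlated with Pearson's r = 0.982, as a description of libraries that share experiments and clones. ADAR and MAVS had r = 0.942, and RNASEH2C had r = 0.914 with IFIH1 and −0.957 with LSM11. The genes most like RNASEH2A were WIZ (0.996) and EML2 (0.995), both on chromosome 19, and LZTS2 (0.994). Those most like IRF3 were KPTN (0.992, chromosome 19) and ARHGDIA (0.992), and those most like IFIH1 were GPAT3 (0.988), SFRP1 (0.985) and ANXA3 (0.984). Such values were common, as 1021, 899 and 502 genes had r above 0.9 with RNASEH2A, IRF3 and IFIH1.

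Of 126 further genes of DNA and RNA sensing, signalling, nucleic acid metabolism, histone transcript processing and interferon signalling, 105 were in the table. In experiments 15 and 16, 5 of them were called higher and 14 lower in clone A1, which is 18.1% beside 13.2% of all genes. In clone A2 7 were called higher and 11 lower, which is 17.1% beside 21.2%. Between clone A1 and WT of experiments 10 and 11, 0 were called by edgeR, DESeq2 or limma. At an unadjusted edgeR p under 0.05 there were 10, with no share of all genes given at that threshold. In clones A1 and A2 of experiments 15 and 16 the median log2 fold changes of the 105 genes, −0.0041 and 0.0046, lay near those of all genes. Of 16 RNA sensing genes 12 were in the table, the member IFIH1 among them, and DHX58, OAS1, OAS2 and OASL were not. The table holds only genes with no count of 0, so a rise from 0 could not be seen. In clone A1 2 of the 12 were called higher (OAS3 and ZC3HAV1) and 1 lower (TICAM1). In clone A2 2 were called higher (RIGI and OAS3) and 1 lower (PRKRA, log2 −0.22, edgeR adjusted p = 0.0389). This is 25% in each clone beside 13.2% and 21.2% of all genes.

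OAS3, an interferon-inducible synthase of 2′-5′ oligoadenylates that is activated by double-stranded RNA, had 7.71 and 8.36 CPM in the WT libraries of experiments 15 and 16, 15 and 16.2 CPM in clone A1 and 15.3 and 15.6 CPM in clone A2. It was 1.93-fold higher in clone A1 (log2 0.95, SE 0.099, edgeR adjusted p = 2.70e-05) and 1.92-fold higher in clone A2 (log2 0.94, SE 0.099). It was on the other side of WT in the earlier pair, with 6.90 and 8.77 CPM in WT and 4.04 and 5.85 CPM in clone A1 (log2 −0.67, SE 0.19, edgeR adjusted p = 0.472). The change of its clone A1 effect between the pairs was 1.62 (edgeR adjusted p = 0.00101, SE 0.22), in the same direction as the value for IFIH1. RIGI, the sensor of short double-stranded RNA that also signals through MAVS, had 7.23 and 7.06 CPM in WT, 8.52 and 8.44 CPM in clone A1 and 10.1 and 9.76 CPM in clone A2. It was called in clone A2 (log2 0.47, SE 0.11, edgeR adjusted p = 0.00585), while its value in clone A1 was 0.25 (edgeR adjusted p = 0.165, SE 0.11).

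Of 15 genes of cytosolic DNA sensing 12 were in the table, and IFI16, AIM2 and ZBP1 were not. Of the 12, 2 were called lower in clone A1 and 3 in clone A2, and none was called higher. This is 16.7% and 25% beside 13.2% and 21.2% of all genes. ZDHHC11, an adaptor that helps STING1, had 16.8 and 15.8 CPM in WT, 9.94 and 9.73 CPM in clone A1 and 9.87 and 8.14 CPM in clone A2, with log2 fold changes of −0.73 (SE 0.11) and −0.86 (SE 0.11). ZDHHC11 also differed between the WT libraries of the 2 pairs, by −0.86 (SE 0.11). STING1, the adaptor of the DNA sensor cGAS, had 24.0 and 22 CPM in WT, 24.5 and 23.8 CPM in clone A1 and 17.2 and 17.8 CPM in clone A2. STING1 was lower in clone A2 than in clone A1 (log2 −0.47, SE 0.082, edgeR adjusted p = 0.00188), beside a median of 0.0014 for 157 neighbours. CGAS itself had 4 to 16 reads in a library and was not called, at 0.94 in clone A1 (edgeR adjusted p = 0.285, SE 0.53) and 0.28 in clone A2 (edgeR adjusted p = 0.781, SE 0.57) on the log2 scale. XRCC6, a subunit of the Ku complex, was lower in clone A2 (log2 −0.66, SE 0.060), and its 171 neighbours had a median of −0.54.

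**Figure D4:**
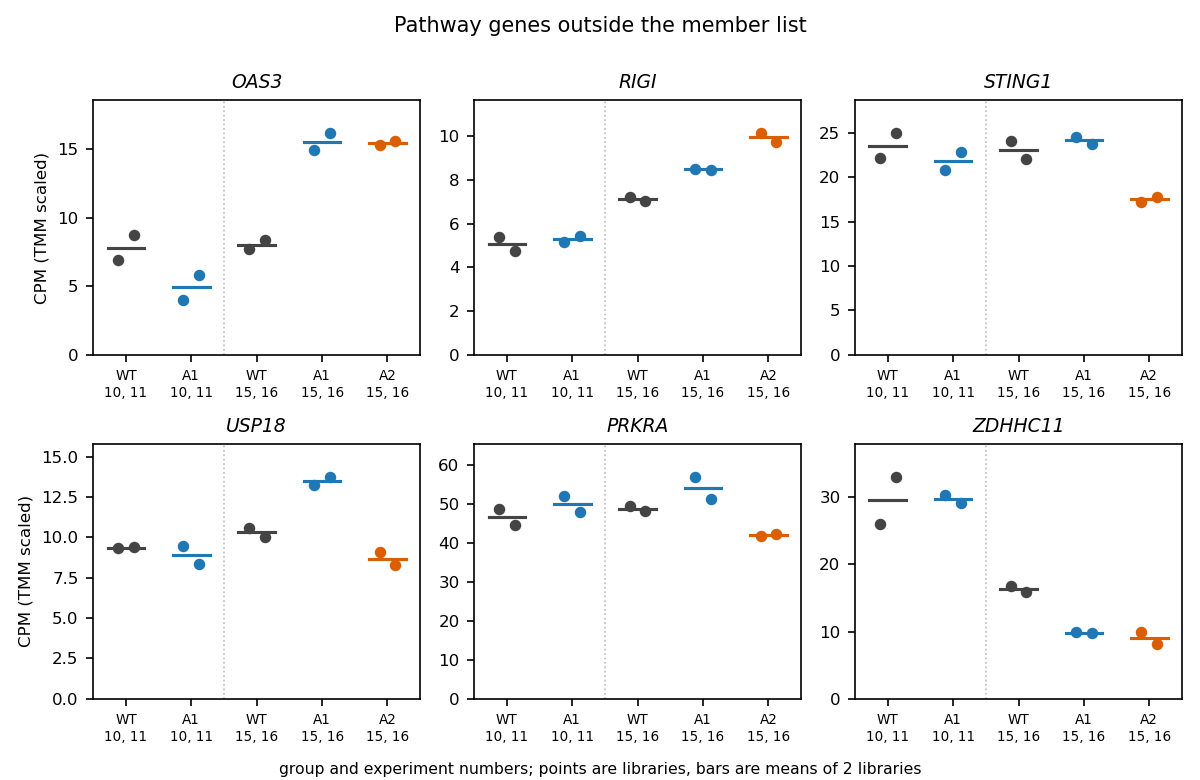
Levels of 6 pathway genes outside the member list in every library, in CPM on linear axes that start at 0; points are libraries and bars the means of 2 libraries. OAS3 was higher in both clones in experiments 15 and 16, and STING1, USP18 and PRKRA were lower in clone A2 than in clone A1.

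Between the clones 5 of the 105 genes were called and all were lower in clone A2, which is 4.76% beside 6.16% of all genes. They were STING1, PRKRA, USP18, XRCC6 and SNRPD3. PRKRA, an activator of the RNA-dependent kinase PKR, had 41.8 and 42.4 CPM in clone A2 and 56.9 and 51.4 CPM in clone A1 (log2 −0.36, edgeR adjusted p = 0.00399, SE 0.071), and without clone A1 of experiment 15 it was not called (−0.29, edgeR adjusted p = 0.0673). USP18, which restrains interferon receptor signalling, had 9.08 and 8.26 CPM in clone A2 and 13.3 and 13.7 CPM in clone A1 (log2 −0.64, SE 0.10). With the median of their neighbours removed, STING1 (−0.47) and PRKRA (−0.37) were still called, with limma adjusted p of 0.00158 and 0.00251. The values left to USP18 (−0.15), XRCC6 (0.022) and SNRPD3 (−0.027), a core protein of spliceosomal particles and of U7, had limma adjusted p of 0.468, 0.884 and 0.840.

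In clone A1 DDX39A (log2 −0.41, SE 0.075) and TICAM1 (−0.38, SE 0.11), the adaptor of TLR3, were lower, and USP18 (0.39, SE 0.10) and IRF5 (0.35, SE 0.096) were higher. In clone A2 SNRPD3 (−0.58, SE 0.061) was lower and DNASE1 (0.42, SE 0.090), a secreted DNA endonuclease, was higher. USP18, TICAM1 and IRF5 lost their call in clone A1 without WT of experiment 16 (edgeR adjusted p 0.131, 0.151 and 0.223) or without clone A1 of experiment 15 (0.0620, 0.176 and 0.199), and USP18 and TICAM1 also without clone A1 of experiment 16 (0.0875 and 0.0528). DNASE1 lost it in clone A2 without WT of experiment 16 (edgeR adjusted p = 0.0609). DDX39A and TICAM1 lie on chromosome 19, in windows with medians of −0.18 and −0.20. With the median of the neighbours removed, DDX39A was still called in clone A1 (−0.23, limma adjusted p = 0.0330), as were OAS3 and ZDHHC11 in both clones and RIGI in clone A2 (0.41, limma adjusted p = 0.0177). The calls of TICAM1 (−0.17, limma adjusted p = 0.346), USP18 (0.28, 0.0993), IRF5 (0.15, 0.402) and ZC3HAV1 (0.020, 0.897) in clone A1 were lost, and that of ZC3HAV1, at 0.21 with an edgeR adjusted p of 0.0472, also in the fit of all libraries (0.0861). In clone A2 those of SNRPD3 (−0.15, limma adjusted p = 0.0750), DNASE1 (0.24, 0.0787) and XRCC6 (−0.12, 0.203) were lost as well.

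The interferon score used in Aicardi-Goutières syndrome is built on 6 genes. Of these, IFI27, IFI44L, IFIT1 and ISG15 were in the table, and RSAD2 and SIGLEC1 were not. By edgeR, DESeq2 or limma 0 of the 4 were called in each comparison within or between the pairs of experiments. This stands beside 13.2% and 21.2% of all genes called by edgeR in clones A1 and A2 of experiments 15 and 16. At most 1 of the 4 had an unadjusted edgeR p under 0.05, with no share of all genes given at that threshold. Of the 4 genes edgeR called 1 in clone A2 without clone A1 of experiment 15 or of experiment 16, and 1 between the WT libraries of the pairs without WT of experiment 10. In experiments 15 and 16 ISG15, a ubiquitin-like protein, had 5.39 and 4.48 CPM in WT, 5.87 and 4.77 CPM in clone A1 and 5.65 and 4.14 CPM in clone A2. IFIT1, which binds viral RNA ends, had 3.02 and 3.16 CPM in WT, 4.55 and 2.80 CPM in clone A1 and 4.60 and 4.43 CPM in clone A2. The value of IFIT1 in clone A2 was 0.54 (SE 0.20), with an adjusted p by edgeR of 0.0644, and of 0.0332 with the experiment as a block, and with the regional median removed limma gave 0.0200. IFI27 stayed at or below 0.999 CPM and IFI44L between 0.78 and 1.62 CPM. For these 4 genes the edgeR adjusted p in clone A1 was 0.187 to 0.809, at 2 libraries a group.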

How the data were processed

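The table the authors deposited holds raw counts of reads, 1 row for each NCBI gene. The authors extracted RNA, made stranded mRNA libraries, aligned with HISAT2 to GRCh38 (annotation from NCBI), and kept genes with no count of 0. StringTie is also named in the submitters' processing notes, and the counting program and its strand setting are not given in the sources used here. The paper and the labels name different extraction kits. Of 13920 genes, 13885 had a symbol in the NCBI table.

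The main test was that of edgeR 4.0.16 in R 4.3.3 (TMM, robust quasi-likelihood test) and Benjamini-Hochberg adjustment over all genes at 0.05. Experiments 15 and 16 (6 libraries), experiments 10 and 11 (4 libraries) and both pairs of WT and clone A1 (8 libraries) were fitted separately. Log2 CPM used a prior count of 2. Whether groups overlapped is a description of 2 libraries a group, and the share of all genes without overlap is not given. Alternatives were DESeq2 1.42.0, limma 3.58.1, RLE scaling, filters by expression or a mean count of 10, the experiment as a block, all 10 libraries in 1 fit, each library left out, and removal of the median of all other genes within 10 Mb (at least 20). Methods were checked on simulated data. All library pairs differed by more than counting noise. The study's methods call the RNA-seq samples biological duplicates, whereas no label states separate cultures, and p-values measure the spread between these libraries.

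The members and lists were chosen with earlier results of these data known. Named were the members, SAMHD1, the genes of the interferon score, in each comparison up to 6 called list genes with no overlap and the largest change, and for the 3 most variable members the 3 genes most like each. CGAS, the cell type markers, the genes that overlap a member and ZC3HAV1 were named outside this rule, after their values were seen. Of the genes most like a member, 1 is not reported here. The labels mark libraries of different groups with the same experiment number, which was taken as pairing. With the mean of each group and pair removed, libraries of 1 experiment correlated at 0.0844 to 0.151. With 2 libraries a group and pair, libraries of the 2 experiments of a pair have the same value with the opposite sign. Libraries of different pairs, which share no number, reached −0.178 and 0.178, so these values cannot decide on the pairing. Promoters were read from RefSeq and exon lengths from GENCODE.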

Additional observations from a re-analysis of the deposited data

Results flagged for a closer look

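SAMHD1, the targeted gene, differed in the clone A1 effect between the pairs of experiments, by an interaction term of −1.81 on the log2 scale (edgeR adjusted p = 1.22e-06, SE 0.13). Its log2 fold change in clone A1 was −1.27 in experiments 10 and 11 and −3.08 in experiments 15 and 16, while the WT libraries of the 2 pairs differed by −0.044 (SE 0.082, edgeR adjusted p = 0.759). The libraries labelled clone A1 in the 2 pairs of experiments thus do not have the same level of the targeted gene, which bears on each change of the clone A1 effect given above.

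Among the pathway genes outside the member list, 3 of 105, all named, differed in the clone A1 effect between the pairs by edgeR, which is 2.86% beside 1.91% of all genes, and DESeq2 called 6. The interaction term was 1.62 for OAS3 (edgeR adjusted p = 0.00101, SE 0.22), −0.74 for ZDHHC11 (edgeR adjusted p = 0.0207, SE 0.15) and 0.61 for IRF5 (edgeR adjusted p = 0.0450). Without 1 of 5 libraries (WT of experiment 15 or any 1 of the 4 clone A1 libraries) ZDHHC11 was not called, with edgeR adjusted p of 0.0631 to 0.120, and without any of these or WT of experiment 16 neither was IRF5, with 0.0599 to 0.248. IRF5 was also not called with the regional median removed (0.51, limma adjusted p = 0.109).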

How the results depend on the processing

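RNASEH2A and IRF3 stayed lower in both clones under every alternative in experiments 15 and 16, but with 2 libraries a group their calls depended on single libraries and on the region. Removing the regional median left 0 called members in clone A1 (1109 genes) and 0 in clone A2 (1912 genes), and 1, MAVS, between the WT libraries of the 2 pairs of experiments. It also turned the sign of values that were not called, to 0.0082 for ADAR in clone A1, to −0.014 for RNASEH2C and 0.0011 for LSM11 in clone A2, and for RNASEH2B to 0.012 between the clones and 0.0035 for the change of the clone A1 effect. XRCC6 turned to 0.022 between the clones, where it had been called.

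The replicate block, which is the experiment number, led edgeR to call 3237 genes in clone A1, 4511 in clone A2, 1947 between the clones (with 1 member), 229 in experiments 10 and 11 and 1081 for the change of the clone A1 effect (with 2 members). The numbers of genes without the block were 1834, 2948, 858, 12 and 266. The pairing changed no other call of a member than those of ADAR, MAVS, RNASEH2C and IFIH1 given above. The WT libraries of different pairs share no number and have no blocked value. DESeq2 called 23 genes in experiments 10 and 11 and 402 for the change. The fit of all 10 libraries called 1147 genes in clone A1 and 27 in experiments 10 and 11, and it called IFIH1 between the WT libraries (adjusted p = 0.0415), as DESeq2 did ADAR (adjusted p = 0.0333).

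Leaving out 1 library gave 920 to 1847 genes and 0 to 2 members in clone A1, 1768 to 3205 genes and 0 to 2 members in clone A2, and 497 to 932 genes between the clones. It gave 19 to 3144 genes and 0 to 4 members in experiments 10 and 11, 70 to 1163 genes and 0 to 1 member for the change, and 612 to 3713 genes and 0 to 4 members between the WT libraries. The log2 values whose sign turned had these ranges. In clone A1 they were −0.047 to 0.19 for RNASEH2B and −0.057 to 0.045 for ADAR, and in clone A2 −0.021 to 0.16 for RNASEH2B, −0.061 to 0.12 for RNASEH2C and −0.027 to 0.11 for TBK1. Between the clones they were −0.12 to 0.11 for RNASEH2B, −0.020 to 0.11 for RNASEH2A, −0.0098 to 0.13 for LSM11, −0.097 to 0.038 for TBK1 and −0.092 to 0.079 for IRF3. In experiments 10 and 11 they were −0.0043 to 0.25 for RNASEH2B, −0.041 to 0.15 for LSM11 and −0.10 to 0.039 for MAVS. For the change they were −0.17 to 0.085 for RNASEH2B and −0.13 to 0.026 for MAVS, and between the WT libraries −0.14 to 0.043 for SAMHD1 and −0.074 to 0.099 for TBK1. None of these ranges belongs to a value that was called with all libraries, and the cause was not tested. IFIH1 had 10 to 76 reads in a library, and the SE of its log2 values was 0.26 to 0.47.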
